A study of Mus musculus with 8 samples.

Results

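The distribution of m6A antibody reads in control αTC1-6 cells, a mouse pancreatic alpha cell line, was described by setting 2 immunoprecipitated libraries (IP) against 2 Input libraries. Both kinds came from cells given a scramble siRNA (SCR, replicates 1 and 2), and the members are all 33774 sites of the deposited table, which is the whole site list of the series. Of the 8 libraries in the series, these 4 give the SCR levels and ratios. The other 4 came from αTC1-6 cells given METTL14 siRNA (M14KD, IP and Input, 2 libraries each). They entered the fits to estimate the spread and serve as a comparison at the end. αTC1-6 is a single clone, derived from a tumour that arose in mice carrying a viral oncogene under the glucagon promoter, so it models 1 transformed alpha cell lineage. No culture time, medium or age is given by the labels, and they name no separate cultures for the replicates. The p-values therefore speak of the spread among these libraries, which may be technical.

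N6-methyladenosine (m6A) is a methyl group placed on adenosines of messenger RNA by a nuclear complex in which Mettl3 is the catalytic subunit and Mettl14 its RNA-binding partner. The complex acts mostly at a short motif with AC at its core, and m6A is known to lie chiefly in long internal exons and near stop codons. Demethylases (Fto, Alkbh5) can remove it, and reader proteins (the Ythdf and Ythdc families) bind it and direct splicing, translation and decay. In m6A-eCLIP an anti-m6A antibody is fixed to RNA with ultraviolet light, so that read ends mark the base near the contact. In this account a site's ratio is log2 IP over Input, a difference between libraries and not a level. Levels are given as CPM, in which the site counts of each library are scaled to sum to 1000000.

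The sites were 33724 single bases, 49 stretches of 3 bases and 1 of 2 bases, in mm10 coordinates. By RefSeq annotation of that assembly, 31927 sites (94.5%) could be given to 1 gene, in 6531 genes in all, with a median of 3 sites per gene. A single site was found in 1656 genes, and 25 or more in 55 genes, led by Irs2 (the insulin receptor substrate 2) with 68. Exons, introns and untranslated regions are not annotated here. The SCR Input libraries held 3616603 and 3637740 counts, with medians of 34 and 33 per site. SCR IP libraries were about 3 times as deep, with 10918559 and 10573976 counts and medians of 177 and 170 per site. Replicates differed by more than sampling noise, with a chi-square over degrees of freedom of 1.45 for Input and 2.56 for IP. Of 10 alpha cell markers 8 had sites, among them Gcg, Ttr, Irx1, Irx2 and Pax6. None of the markers of beta, delta, PP, acinar, endothelial, fibroblast or leukocyte cells had a site, and the duct marker Sox9 had 0.553 and 0.825 CPM in Input.

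Sequence could be read where a site fell in a RefSeq start window (GRCm38.p6), which runs from 250 bases before to 50 bases after a gene's annotated start. This held for 430 sites in 337 genes. The 5 largest called ratios each way, among sites with a mean count of at least 50, are shown because they span the range of the data at gene starts; they were chosen after their values were seen. Each line gives 21 bases of the gene's strand, 5′ to 3′, with the site itself in capitals and 10 bases on either side.

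Fancl: gttggcccagTtcattgtcca
Ppt2: ccacgcccatAtaaggtgggt
Rbbp6: ggtcattcggActctaacgtg
Klc1: cgacgccattTtcggcggcgg
Txndc11: atgttgcaggAccatatcccg
Tomm22: tccgcttccgGtgtcctacag
Atp5e: accccttccgCtactcaggcc
Slc38a5: tgggggcgggAgatagggact
Ndufa4: ggacgtccgcTcagccaggtt
Slc25a3: aagggcacggAtcttcgggcc

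The first 5 windows had more IP than Input reads and the last 5 fewer. Rbbp6, a ubiquitin ligase that takes part in pre-mRNA processing, has its site on the plus strand at chr7:122970593-122970613. It had 10.2 and 11.5 CPM in Input and 42.2 and 39.2 in IP, a ratio of 1.19 (SE 0.17, adjusted p = 1.95e-07). Its window has GGAC ending just after the site, and so has that of Txndc11, a thioredoxin family protein (minus strand, chr16:11088136-11088156; ratio 1.01, SE 0.21). Fancl, a ubiquitin ligase of the Fanconi anaemia pathway (plus strand, chr11:26387093-26387113), had 2.49 and 0.825 CPM in Input and 22.7 and 22.4 in IP, with a T at the site and no GGAC in the window. At the low end, Tomm22, a receptor of the outer mitochondrial membrane, has its site on the plus strand at chr15:79670869-79670889. It had 31.0 and 30.2 CPM in Input but 3.30 and 3.12 in IP. Ndufa4, a respiratory chain protein (minus strand, chr6:11907430-11907450), had 439.9 and 448 CPM in Input and 106 in each IP library. The Ndufa4 and Slc38a5 windows also hold GGAC, but away from the site.

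Over the 422 tested sites in start windows, 21 were higher in IP (4.98%), 308 lower (73.0%) and 93 not called, with a median ratio of -1.04. As a reference, the same letters were counted in all 32851 RefSeq start windows at each site's own distance from the start, and averaged over the sites. An A stood at 37.2% of the 430 sites, against 22.3% of the reference. The trinucleotides AAC or GAC with their A at the site were found in 6 of the 21 higher sites (28.6%), 11 of the 93 not called (11.8%) and 6 of the 308 lower ones (1.95%), against 2.38% of the reference. GGAC anywhere in the 21 bases was found in 33.3%, 11.8% and 9.74% of these classes and in 7.39% of the reference. Its reverse complement GTCC, the same letters on the other strand, was found in 9.52%, 7.53% and 8.12%, and in 6.84% of the reference. GGAC with its A at the site is also counted under GAC.

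Of the 430 sites 346 lay after the nearest annotated start of their gene and 84 before it. Among the latter were those shown for Ppt2 (position -66), Txndc11 (-216) and Slc25a3 (-26). All 430 lay inside the annotated span of their gene, so a position before that start does not place a site outside the gene. The share with AAC or GAC was 15.5% before the start and 2.89% after it, and the share with GGAC 20.2% and 8.96%. Among the 21 higher sites 8 lay before the start, of which 4 had AAC or GAC and 2 had GGAC in the window. Of the 13 after it, 2 had AAC or GAC and 5 had GGAC. These shares rest on few sites and are a description of letters.

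Across the whole list, most sites differed between IP and Input, in both directions and by about equal numbers. Of 33356 sites tested with edgeR's quasi-likelihood test, 22486 were called at a Benjamini-Hochberg adjusted p under 0.05 (67.4%), 11352 with more reads in IP (34.0%) and 11134 with fewer (33.4%). Ratios ran from -1.94 to 1.74 between the 5th and 95th percentiles, around a median of 0.06, and the median SE was 0.21. At least 2-fold differences were called at 6442 sites with higher IP and 6607 with lower IP, and at least 4-fold differences at 930 and 1510. The same-numbered IP and Input libraries gave 1 ratio per replicate, and these correlated at 0.907 across sites (Pearson, sites sharing the same 4 libraries). Summed by gene, 4459 of 6379 genes were called (69.9%), 2245 higher (35.2%) and 2214 lower (34.7%), with a median SE of 0.15.

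Where 0 lies on this scale depends on how IP and Input libraries are scaled against each other, so higher and lower mean relative to the bulk of sites. The values above use TMM, which sets the bulk near 0. With column totals alone the median ratio rose by 0.71, so that 77.9% of called sites were higher in IP. Scaled on mitochondrial sites it rose by 2.55, and 99.5% were. DESeq2's size factors moved it by -0.03. CPM values use column totals, so equal CPM in IP and Input corresponds to a TMM ratio of about -0.71. All directions below are under TMM scaling, and the distance of a gene or list from the median gene is given where the order rather than the sign is meant.

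**Figure D1:**
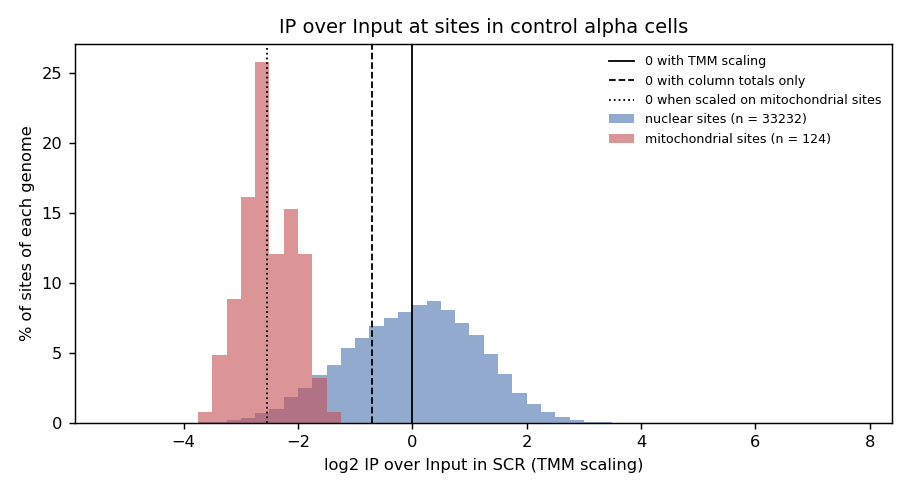
Share of sites in each bin of log2 IP over Input (x axis, TMM scaling) for 33232 nuclear and 124 mitochondrial sites in SCR cells; vertical lines show where 0 would lie under TMM, under column totals and when scaled on mitochondrial sites. Mitochondrial sites lie at the low end, around -2.55 under TMM. The choice of line moves 0 and not the order of the sites.

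The lowest ratios as a class belonged to RNA made inside mitochondria. The 124 mitochondrial sites took 27.9% and 27.5% of the counts in the SCR Input libraries but 8.14% and 7.31% in IP, and the groups did not overlap. Their median ratio was -2.55, and all 124 were called lower under TMM. COX1, the cytochrome c oxidase subunit, had the most Input reads of any gene, with 77698 and 84742 CPM in Input and 18577 and 18704 in IP (-2.82, SE 0.06). ND2, a subunit of complex I, had 62242 and 61342 CPM in Input and 19449 and 17718 in IP over 33 sites (-2.43, SE 0.06). ND4 was the least low of the 7 listed mitochondrial messenger RNAs (-2.02, SE 0.09). The list median lay 2.46 below the median of all genes with each of the 4 scalings tried. A change of scaling moves all ratios by nearly the same amount, so this distance could hardly change and is no check of the result. With libraries scaled on the mitochondrial sites themselves, 3 of the 7 genes were called higher and 3 lower.

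Genes with the highest IP over Input were mostly low in Input. Gata2, a zinc finger transcription factor (chromosome 6, 88193891 to 88207032), had 6.64 and 3.85 CPM in Input and 56.5 and 59.4 in IP over 2 sites. Its ratio was the largest by the naming rule, 2.77 (SE 0.20, adjusted p = 6.23e-09), and the 2 groups lay far apart. Epn2, an endocytic adaptor of the epsin family, had 8.85 and 4.67 CPM in Input and 57.6 and 63.0 in IP (2.46, SE 0.20). Rsf1, a subunit of a chromatin remodelling complex, had 4.98 and 6.05 CPM in Input and 56.5 and 36.6 in IP (2.38, SE 0.27). For Phyhipl, the ratio was 2.32 (SE 0.13), with 34.3 and 24.7 CPM in Input and 242 and 233 in IP, and all 4 of its sites were called higher.

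Others of the 12 genes by the naming rule were Cdpf1, Spata7, Homer1 (a scaffold protein of synapses), Mfsd4b4, Emc1 (a subunit of the endoplasmic reticulum membrane complex) and Ddx11 (a DNA helicase), from 2.34 down to 2.03. Mfsd4b4 had the most sites of the 12, and 12 of its 13 were called higher. Emc1 was mixed, with 1 of its 2 sites higher and the other lower.

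The 12 genes with the lowest ratios by the naming rule included 3 mitochondrially encoded ones and several nuclear genes for mitochondrial proteins. Mtch1, a protein of the outer mitochondrial membrane (chromosome 17, 29332076 to 29347947), had 121 and 140.5 CPM in Input and 21.2 and 19.7 in IP at its single site (-3.37, SE 0.12, adjusted p = 2.25e-12). Atp5a1, a catalytic-core subunit of ATP synthase, had 457 and 482 CPM in Input and 84.9 and 90.7 in IP (-3.11, SE 0.09). Its partner Atp5b had 1338 and 1354 CPM in Input and 274 and 339.7 in IP over 3 sites (-2.83, SE 0.10). All 3 had IP values well below both Input values in CPM, so their order against Input did not turn with column totals.

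The remaining genes were Fam162a (-2.87), the pseudogene Gm4617 (-2.86), COX1, the Hsp70 cochaperone Bag1 (-2.79), CYTB (-2.74), Cox6a1 of complex IV (-2.70), ND1 (-2.70), Gcg (-2.68) and the cytokine gene Mif (-2.67). When libraries were scaled on mitochondrial sites, Bag1, Cox6a1, Gcg and Mif were no longer called, and Gcg had a ratio of -0.15 (adjusted p = 0.0664). A pseudogene's reads can be shared with its parent gene, so Gm4617 is uncertain.

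**Figure D2:**
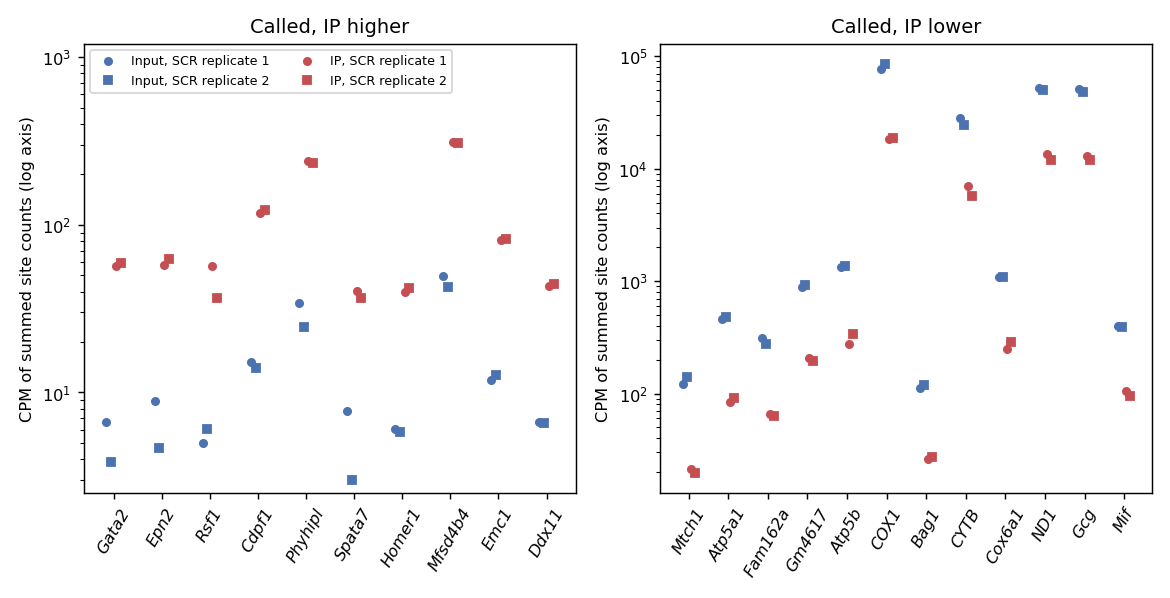
CPM of summed site counts (log axis) in the 4 SCR libraries for 10 of the 12 genes with the highest and the 12 with the lowest IP over Input by the naming rule; circles and squares are replicates 1 and 2, blue is Input and red is IP. IP lies above Input for all 10 genes on the left and below it for all 12 on the right, as the rule that chose them fixes; the 2 y axes cover different ranges, and CPM is by column totals, under which the median ratio lies 0.71 higher than with TMM.

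Gcg, the glucagon gene and the main product of alpha cells (chromosome 2, 62474530 to 62483653), stood among the most abundant and least enriched transcripts. Over 23 sites it had 51554 and 48363 CPM in Input and 13026 and 12078 in IP, a ratio of -2.68 (SE 0.06, adjusted p = 2.18e-14). All 23 sites were called lower, from -3.16 to -1.35. Its IP level was nonetheless the 5th highest of all genes. The 10 genes with the highest IP level were COX1, ND2, ND4, ND1, Gcg, Chga, CYTB, ND5, Eef2 and D17H6S56E-5, of which 9 had ratios below 0.

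Chga encodes chromogranin A, a structural protein of secretory granules. It had 16960 and 17857 CPM in Input and 7507 and 7850 in IP (-1.87, SE 0.06), with 26 of 31 sites lower and 3 higher. Translation elongation factor 2, Eef2, was nearly level in CPM, with 5235 and 5716 in Input and 5234 and 5588 in IP. Under TMM this is a ratio of -0.71 (SE 0.09), which became 0.01 with column totals. D17H6S56E-5 was the exception among the 10, with 1922 and 1971 CPM in Input and 5054 and 5389.8 in IP (0.73, SE 0.06), and 34 of its 51 sites were called higher and 7 lower. Ttr, the transthyretin gene, and Maged1, a MAGE family gene, completed the 10 highest in Input and had ratios of -1.91 (SE 0.06) and -2.11 (SE 0.07).

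Among alpha cell identity genes, most transcription factors were called higher, while the hormone gene, its convertase and Ttr were lower. Of 15 tested, 9 were higher in IP and 4 lower, against 35.2% and 34.7% of all genes, and the median ratio was 0.29 against 0.04 over all genes. Pou3f4, a POU factor of alpha cells, had 23.8 and 22.0 CPM in Input and 73.3 and 84.7 in IP (1.09, SE 0.15). Rfx6, a factor needed for endocrine cells, had 14.9 and 17.3 CPM in Input and 55.6 and 43.3 in IP (0.92, SE 0.17). Neurod1 (0.62), Pax6 (0.51), Insm1 (0.47), Irx2 (0.43), Isl1 (0.29) and Foxa2 (0.22), all regulators of islet gene expression, were also called higher, as was the imprinted Peg10 (0.65). The 4 called lower were Gcg, Ttr, Irx1 (-0.75) and the prohormone convertase Pcsk2 (-0.63); Slc7a2 and Nkx2-2 were not called.

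Genes of the secretory granule leaned the other way, with 11 of 16 lower (68.75%) and 1 higher (6.25%), against 34.7% and 35.2% of all genes. The median of the list was -0.85. Besides Chga, the lower ones included Rab3a, a GTPase of exocytosis (-1.62, SE 0.14), carboxypeptidase E, Cpe (-1.49), Scg2 (-1.24), Chgb (-1.08) and the zinc transporter Slc30a8 (-1.02). Rab27a, a GTPase that docks granules, was the 1 called higher, with 24.1 and 26.1 CPM in Input and 61.6 and 55.6 in IP (0.53, SE 0.13). With column totals the same list had 5 higher and 8 lower.

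Components of the m6A machinery were themselves spread over the range. Among 7 tested writer genes 5 were higher (71.4%) and 1 lower (14.3%), against 35.2% and 34.7% of all genes. Rbm15b, an RNA-binding adaptor of the writer complex (chromosome 9), had 137 and 165 CPM in Input and 643 and 685 in IP over 18 sites (1.44, SE 0.12). Its paralogue Rbm15 had only 3 and 5 Input counts against 75 and 77 in IP (1.98, SE 0.38). Cbll1 (0.67), Wtap (0.54) and Virma (0.38), other parts of the complex, were also called higher. Mettl14 was the 1 called lower, with 17.7 and 12.1 CPM in Input and 7.14 and 7.66 in IP over 2 sites (-1.70, SE 0.24), and Mettl3 had no site.

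Readers and erasers had 2 of 9 genes higher and 3 lower, where 35.2% of all genes were higher and 34.7% lower, so the count does not set them apart. Ythdf3 had 115 and 77.0 CPM in Input and 358 and 258 in IP (0.99, SE 0.17), and 11 of its 17 sites were called higher and 1 lower. Ythdf2, which directs decay of methylated RNA, had 10 of 18 sites higher and 2 lower (0.50, SE 0.08). The lower genes were Hnrnpa2b1 (-1.66, SE 0.10), Alkbh5 (-0.86, SE 0.15) and Hnrnpc (-0.62); with column totals Alkbh5 (-0.14) and Hnrnpc (0.09) were not called. Fto, Ythdf1, Ythdc1 and Prrc2a were not called, with ratios between -0.15 and 0.02.

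Genes of the nuclear-encoded respiratory chain had the most one-sided list outside the mitochondrial genome. Of 46 genes 45 were lower (97.8%, against 34.7% of all genes) and none higher, with a median of -1.39. That median lay 1.43 below that of all genes with each of the 4 scalings, a distance that scaling hardly moves. With column totals 32 genes were lower and 6 higher, and 2 were lower and 39 higher when scaled on mitochondrial sites. Its members took part in all the complexes, from Atp5a1, Atp5b and Cox6a1 at the low end to Ndufb9 (-0.34, SE 0.10) and Ndufs4 (-0.34, SE 0.12) at the other. The call for Ndufb9 was lost without Input replicate 1 or IP replicate 1, and that for Ndufs4 without Input replicate 1, Input replicate 2 or IP replicate 2. Cox7a2l, a factor of supercomplex assembly, was the 1 not called (0.08).

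Cytosolic ribosomal protein genes were few, with 10 tested, 7 of them lower (70%, against 34.7% of all genes) and a median of -1.39. Rpl41 was the best covered, with 2067 and 2274 CPM in Input and 1166 and 1203 in IP, and all 7 of its sites were lower (-1.57, SE 0.07). Of 14 translation factors 10 were lower and none higher, among them Eef1a1 (-1.999, SE 0.08) and poly(A)-binding protein, Pabpc1 (-1.78, SE 0.10). Endoplasmic reticulum chaperones were 11 of 13 lower, led by Hspa5, the main luminal chaperone, with 223 and 222 CPM in Input and 88.5 and 89.7 in IP (-2.01, SE 0.09). Dnajb9, a cochaperone of Hspa5, went the other way at 0.98 (SE 0.11). Splicing factors were 19 of 28 lower, with Srsf3 at -2.10 (SE 0.12) and Srsf5 at 1.24 (SE 0.10), and cell cycle genes 15 of 22, with Pcna at -2.07 (SE 0.10) and Tpx2 as the 1 higher (0.43, SE 0.08).

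At the high end were regulators of transcription. Of 206 tested zinc finger genes 112 were higher (54.4%) and 17 lower (8.25%), against 35.2% and 34.7% of all genes. The median of the list was 0.62. The 2 highest, Zfp940 and Zfp763, had 1 Input count each. Their IP over Input folds were 11.9 (counting 95% interval 2.06 to 479) and 9.46 (1.62 to 382). The call for Zfp763 was lost with DESeq2 (adjusted p = 0.0592) and without Input replicate 2 of SCR, where its ratio was 2.24. Zfp384 had the lowest ratio of the list, with 5.81 and 8.52 CPM in Input and 1.01 and 1.32 in IP (-3.29, SE 0.35). Chromatin modifiers had 25 of 37 higher and 3 lower, with a median of 0.51. The histone demethylase Kdm6b had a ratio of 1.38 (SE 0.34). The 3 lower were the remodeller Chd4 (-1.40, SE 0.09) and the histone methyltransferases Ehmt2 (-1.35, SE 0.11) and Ezh2 (-0.86).

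Insulin, IGF and mTOR signalling genes had 10 of 18 higher (55.6%) and 5 lower (27.8%), against 35.2% and 34.7% of all genes. The median of the list was 0.48. The higher ones included the insulin receptor Insr (1.56, SE 0.23), the factors Foxo1 (1.44, SE 0.20) and Foxo3 (1.42), the kinase subunit Pik3ca (1.40), Rps6kb1 (1.18), Irs1 (0.91) and Irs2. The lower ones included the kinases Akt1 and Akt2, Eif4ebp1 (-0.99) and Pik3r2 (-0.98). Akt1 had 237 and 273 CPM in Input and 105 and 116 in IP (-1.90, SE 0.10), while Irs2 had 1816 and 1849 in Input and 3957 and 4125 in IP (0.45, SE 0.06).

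Stress and early response factors had 10 of 22 higher (45.5%) and 5 lower (22.7%), against 35.2% and 34.7% of all genes. Cebpb, a factor of metabolic and stress responses, had 124 and 115 CPM in Input and 737 and 825 in IP (2.02, SE 0.10), and 5 of its 6 sites were called higher. The HLH inhibitors Id3 (-1.49, SE 0.07), Id1 (-0.85) and Id2 (-0.53) were all lower, but with column totals Id1 was not called and Id2 was higher (0.19). Ion channels and receptors had 6 of 13 higher (46.2%) and 5 lower (38.5%), near those shares, with the calcium-sensing receptor Casr at 2.63 (SE 0.42; 6 Input and 180 IP counts). Amino acid transport and metabolism had 3 of 24 higher and 12 lower; Slc7a5, a large neutral amino acid transporter, was among the higher (0.74, SE 0.09) and the aminotransferase Got2 among the lower (-2.04, SE 0.08).

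Of 4 long noncoding RNAs tested, Tug1 (0.74, SE 0.14) and Neat1 (0.43, SE 0.09) were higher. Malat1, a nuclear RNA known to carry m6A, had 239 and 162 CPM in Input and 462 and 315 in IP over 9 sites, and its ratio of 0.26 (SE 0.17, adjusted p = 0.165) was not called. With the replicate number as a block it was called (adjusted p = 0.00049), and without IP replicate 1 its ratio was -0.03. The histone list matched no gene, and the list of other islet cell genes had 1 gene with a site and none tested.

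The lists differed in RNA level as well. In the M14KD Input libraries, which share no reads with the SCR ratios, the median CPM per site of a list's genes was 144 for the respiratory chain, 51.2 for endoplasmic reticulum chaperones, 38.1 for ribosomal proteins and 36.8 for secretory granule genes. It was 4.36 for chromatin modifiers, 4.80 for m6A writers and 2.64 for zinc finger genes. Their part in the order of the lists was not tested.

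**Figure D3:**
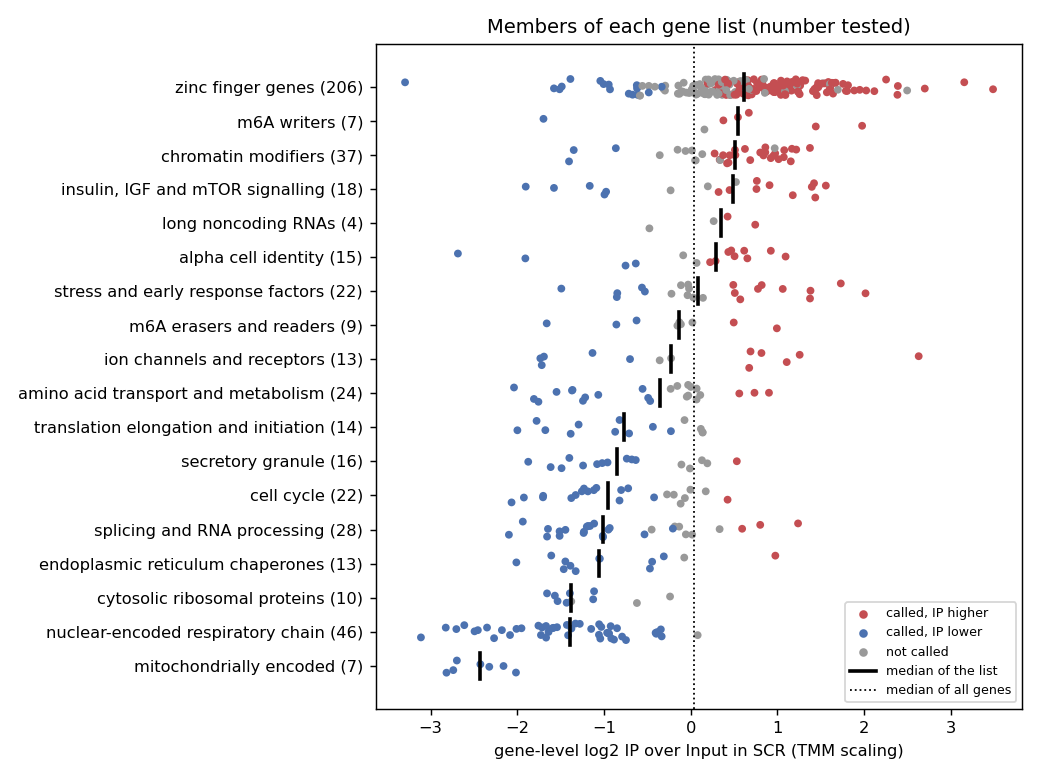
Gene-level log2 IP over Input in SCR (TMM scaling) for each tested gene of 18 lists, ordered by list median (black bar); red and blue points were called higher and lower, grey were not called, and the dotted line is the median of all genes, 0.04. Lists of mitochondrial, ribosomal and chaperone genes lie to the left and those of zinc finger, chromatin and m6A writer genes to the right; ratios rise by 0.72 with column totals and by 2.53 when scaled on mitochondrial sites.

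Single sites reached larger ratios than gene sums. Sowahc, an ankyrin repeat gene (chromosome 10, position 59223119), had 2.77 and 1.92 CPM in Input and 46.2 and 42.2 in IP, a ratio of 3.52 (SE 0.24). In Jun, the AP-1 subunit, the site at position 95049960 of chromosome 4 had 1.38 and 2.75 CPM in Input and 34.1 and 41.7 in IP (3.47, SE 0.27). Fryl, a large scaffold protein gene, had the best counted of the high sites, with 35 Input and 1627 IP counts at position 73021914 of chromosome 5 (3.25, SE 0.20). Trim25, a ubiquitin ligase of antiviral signalling, had 3.22 (SE 0.27) at position 89016794 of chromosome 11.

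Some of the highest ratios rested on very few Input counts. The Zfp322a site (chromosome 13, 23356212) had 1 Input count in each replicate and 141 and 100 in IP, a fold of 24.8 with a counting 95% interval of 6.79 to 206. At the Cyria site there were 3 and 0 Input counts and 122 and 81 in IP, a fold of 13.9 (4.69 to 68.03). Rsf1's highest site had 0 and 4 Input counts. These intervals cover counting error only, and whether reads of 1 molecule were merged is not stated. Epn2, Irgq and Gm34130 made up the 10, with ratios from 3.45 to 3.53.

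Of the named sites, the lowest were well counted in Input, which the rule of a mean SCR count of at least 50 favours. Tomm22, shown above, was the lowest of them at -3.96 (SE 0.19). Over all tested sites the lowest ratio was -5.05. Eef2 had a site at position 81181948 of chromosome 10 with 283 and 296 CPM in Input and 31.5 and 34.3 in IP (-3.85, SE 0.10), far below the -0.71 of the gene as a whole. Uqcr10 of complex III (-3.61, SE 0.10) and Atp5e of ATP synthase (-3.56, SE 0.11) followed. Slc2a5 (-3.68), the mitochondrial protease gene Lonp1 (-3.61), Itm2c (-3.52), CYTB (-3.52), Atp1b1 (-3.49) and ND1 (-3.48) made up the rest.

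Each site was also compared with 1 value for its whole gene, a measure that does not depend on the scaling of IP against Input. That value is fitted to all sites of the gene, the site itself included, so sites with many counts weigh most in it. Of 30064 sites tested in this way 14334 departed from their gene (47.7%), 6014 above it (20%) and 8320 below it (27.7%). The test pools the spread over the sites of a gene as if they were independent. Its p-values may therefore be too small and its calls too many. Of 4833 genes with at least 2 tested sites, 2663 (55.1%) had both a site above and a site below, and 1776 (36.7%) had sites called higher and sites called lower in IP. In the 2413 genes with at least 5 tested sites the median range from lowest to highest site was 2.36 log2 units. The intraclass correlation of site ratios within genes was 0.37. Neighbouring sites were alike when close. Ratios correlated at 0.958 over 3913 pairs within 10 bases, 0.726 over 12447 pairs 10 to 100 bases apart and 0.239 over 6563 pairs 100 to 1000 bases apart. Such neighbours share libraries and may count the same reads, and 72.6% of sites had another within 100 bases.

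Slc2a5, a fructose transporter gene, showed the widest departure by the naming rule. Its site at position 150139722 of chromosome 4 had 42.6 and 49.8 CPM in Input and 6.50 and 5.30 in IP, and lay 4.16 log2 units below its gene (adjusted p = 2.39e-53). That p-value pools the spread over the sites of the gene, many of them close together, and may be too small. Further along the gene, at position 150143601, Input was alike at 39.8 and 44.3 CPM but IP was 254 and 247, a ratio of 1.86 (SE 0.11). Input was thus alike at the 2 sites while IP was not. Tigar (-4.02), Nxt1 (-3.99), Hcfc1 (-3.75), Glcci1 (-3.57), Egln1 (-3.48), Nol12 (-3.41) and Rabif (-3.37) were the other genes with the deepest sites below their gene.

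Above their gene, the largest departures by the naming rule were in Micos10 (3.54), Gnas (3.09), Zfp322a (3.05), 2510039O18Rik (2.92), Eef1d (2.88), Rabgef1 (2.73), Pex2 (2.57) and Eef1a2 (2.56). 2510039O18Rik was the best counted, with 20.7 and 23.1 CPM in Input and 232 and 237 in IP at position 147941598 of chromosome 4. Gnas encodes the stimulatory G protein subunit that couples receptors to cyclic AMP and has several alternative first exons. Its site at position 174296240 of chromosome 2 had 2.49 and 4.12 CPM in Input and 17.8 and 14.8 in IP (1.58, SE 0.27). At position 174346596, near the 3′ end, it had 871 and 941 CPM in Input and 223 in each IP library (-2.74, SE 0.10). Pex2, a peroxisome assembly factor, had 9.95 and 8.52 CPM in Input and 118 and 117 in IP at its site (2.95, SE 0.15).

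Irs2 had calls both ways along its span, with 29 sites higher in IP, 21 lower and 18 not called. The highest, at position 10986320 of chromosome 8, had 24.1 and 23.1 CPM in Input and 154 and 158 in IP (2.01, SE 0.12). The lowest, at position 11008663 and 266 bases from the 5′ end of the span, had nearly the same Input, 24.6 and 21.2 CPM, but 7.78 and 10.97 in IP (-2.002, SE 0.19). High sites came in groups, such as those 2183 to 2214 and 22555 to 22609 bases from the 5′ end.

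Gcg, by contrast, was low throughout. Its 3 sites within 59 bases of the 5′ end were the least low, at -1.35, -1.68 and -1.90, and each lay above its gene, by 1.35, 1.03 and 0.81. The other 20 lay between -3.16 and -2.27. In Chga 3 sites were called higher, at positions 102561766 (0.46), 102561778 (0.32) and 102563247 (0.63). The first had 437 CPM in each Input library and 950.1 and 1019 in IP. Close sites of a gene may count the same reads, so their calls are not independent. Of the 2413 genes with at least 5 tested sites, 24 had every site called higher and 173 every site called lower. The higher included Wdr26, with 11 sites between 0.57 and 1.82, and the calcium pump gene Atp2b1, with 8 between 0.78 and 1.96; the lower included ND2, ND5, Gcg and Cplx1.

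**Figure D4:**
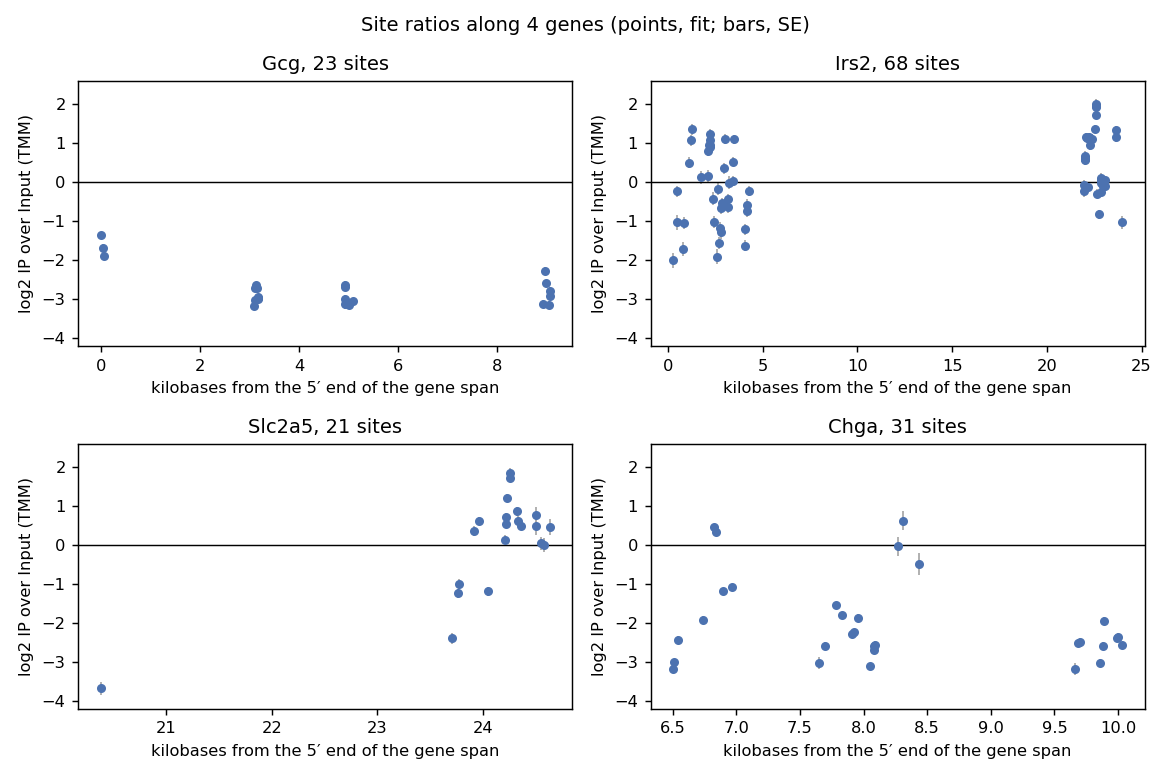
Log2 IP over Input (TMM scaling; points with SE bars from the fit) at each tested site of Gcg, Irs2, Slc2a5 and Chga, against distance from the 5′ end of the gene span in kilobases, introns included. Gcg sites lie between -3.16 and -1.35, while Irs2 sites run from -2.002 to 2.01 and Slc2a5 sites from -3.68 to 1.86; all points would lie 0.71 higher with column totals.

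Position in the gene went with the ratio most clearly at the 5′ end. Strand was known for 25893 named sites. Within 100 bases of the 5′ end of a protein-coding nuclear span, 555 tested sites had a median of -1.19, and 84.0% were called lower and 1.44% higher, against 33.4% and 34.0% of all sites. The median was -1.10 at 100 to 200 bases, -0.66 at 200 to 500 and -0.16 at 500 to 1000, and reached 0.34 beyond 100 kilobases. Replicates 1 and 2 gave -1.17 and -1.21 for the first of these classes. Against their own genes, 19.2% of these first sites were above and 31.0% below, with a median departure of -0.05, close to the 20% and 27.7% and the median of -0.05 over all sites. From 100 to 200 bases 46.7% were below their gene and 11.8% above.

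From the 3′ end the differences were smaller. The median was -0.46 within 100 bases, -0.22 at 200 to 500 and 0.31 at 2000 to 5000 bases, the highest class, and fell back to 0.01 at 5000 to 20000. Long spans had higher ratios than short ones, with medians of 0.37 over 100 kilobases and -0.34 up to 2 kilobases. Against their own gene the classes by distance from the 3′ end all had medians between -0.08 and -0.01.

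**Figure D5:**
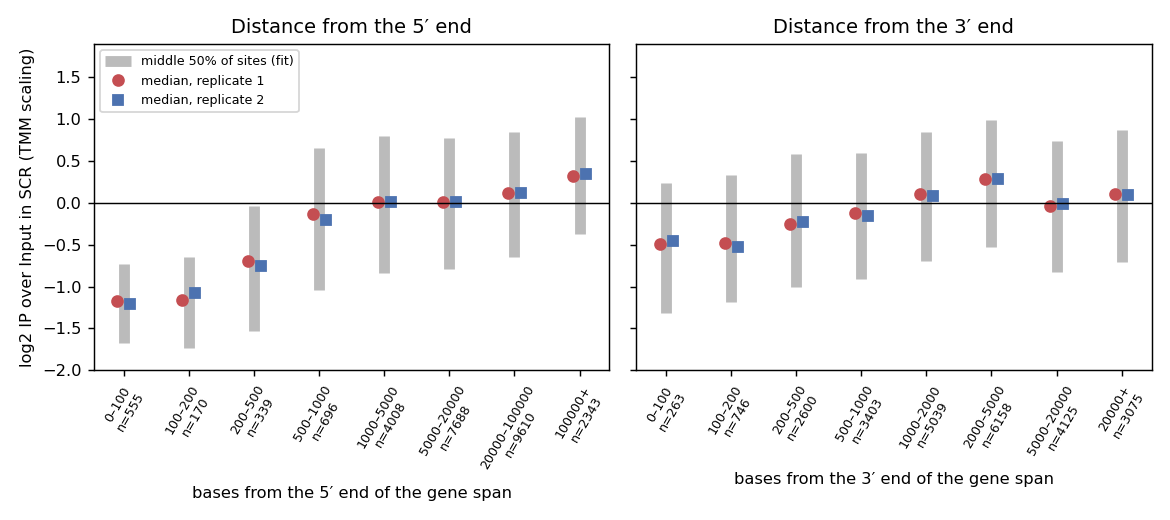
Median log2 IP over Input (TMM scaling) of sites in protein-coding nuclear genes by distance from the 5′ end (left) and the 3′ end (right) of the gene span, for replicate 1 (circles) and replicate 2 (squares), with the middle 50% of fitted values as grey bars and n the tested sites. The medians climb from about -1.2 next to the 5′ end to above 0.3 beyond 100 kilobases, and from about -0.5 at the 3′ end to 0.3 at 2000 to 5000 bases; with column totals all would lie 0.71 higher.

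Ratios also went with how sites clustered and how abundant the RNA was. Sites with another within 10 bases had a median of 0.43, with 50.3% called higher, and those 1000 to 10000 bases from the next had -0.64, with 11.4% higher. The same order held against their own genes, with median departures of 0.17 and -0.42. Genes with a single site had a median of -0.54, and those with 10 to 24 sites 0.24. Sites were split into 5 equal classes by their CPM in the M14KD Input libraries, which do not enter the SCR ratio. From the lowest to the highest class the median ratio was 0.60, 0.36, 0.20, -0.14 and -0.84. Departures from the own gene had medians between -0.08 and 0.02 in all 5. Sites left out by the low-count filter were all in the lowest class, where 6323 of 6741 sites were tested. A site with little Input can pass that filter on its IP reads, and how sites were called is not stated. The part of either in the order of the classes was not tested. Sites in long noncoding RNAs had a median of 0.29 (295 tested), those in pseudogenes -1.05 (48) and those in no gene -0.12 (479).

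The landscape of control cells was compared with that of the Mettl14 knockdown cells, in which the same contrast was taken from 4 other libraries. Ratios in the 2 conditions correlated at 0.944 over sites and 0.942 over genes, with no library shared. Of the sites called higher in SCR 99.3% had a ratio above 0 in M14KD, and of those called lower 99.2% were below 0 there. The test of the difference between the conditions called no site among 33356 and no gene among 6379 at an adjusted p under 0.05, with edgeR and with DESeq2 alike (percent called 0). At an unadjusted p under 0.05 there were 1242 sites and 168 genes by edgeR, fewer than the 1667.8 and 318.95 that chance alone would give. With the replicate number as a block 1 site was called, in Atoh8, a bHLH transcription factor gene (chromosome 6, 72206776), where the ratio was 1.17 higher in M14KD (SE 0.20, adjusted p = 0.00375). Its SCR Input counts were 216 and 105, its M14KD Input counts 96 and 114, its SCR IP counts 266 and 256, and its M14KD IP counts 496 and 281. The median SE of such a difference was 0.30 for a site and 0.21 for a gene, and the lack of calls does not show that the conditions were alike.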

How the data were processed

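The deposited table holds whole-number counts of reads per site in 8 libraries, not normalized, per the file headers and column totals. The submitters' processing notes list mm10, STAR, cutadapt and UMI-tools, without versions. How sites were called, over which window reads were counted and whether molecules were merged is not stated there or in the labels. The labels give 1 protocol for IP and Input alike, so how Input was taken is not stated.

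All 8 libraries were fitted in 1 model of group means with edgeR 4.0.16 in R 4.3.3 (filterByExpr, TMM, quasi-likelihood F-test, Benjamini-Hochberg, threshold 0.05), on sites and on counts summed per gene. A site was named where it lay in 1 protein-coding RefSeq span, or in 1 span of another kind. Sums may count a read more than once. Sites were compared with their gene by diffSpliceDGE, as log2 departures, with the spread pooled over the sites of a gene. SE is the absolute log2 ratio over the square root of F. Ratios per replicate used a pseudocount of 0.5. The tests were checked on simulated counts.

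Named sites had a mean SCR count of at least 50 and named genes at least 200, a call, and both replicate ratios on its side; the 10 sites and 12 genes with the largest ratios each way were taken, 1 site per gene, with 8 sites each way for departures, the 10 genes with the highest IP and Input, the 2 highest and 2 lowest of each list, and Gcg, Mettl14, Mettl3, Malat1 and Irs2. Other names were chosen after their values were seen. The members, the rules and the 21 gene lists were chosen with earlier results of these data known. Same-numbered IP and Input libraries deviated together (r = 0.21 in SCR and 0.12 in M14KD over 31921 sites), so the replicate numbers, taken from the labels, were treated as pairs in a block fit beside the main one. DESeq2 1.42.0, other scalings, filters, SCR libraries alone, 1 site per 100 bases, sites in 1 span only and each library left out were alternatives. Some genes that the rule names are not reported here.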

Additional observations from a re-analysis of the deposited data

How the results depend on the processing

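Scaling decided where 0 lies. With column totals 19720 sites were higher and 5586 lower, and 3992 genes higher and 1062 lower (77.9% and 79.0% of calls higher, against 50.5% and 50.3% with TMM). Scaled on mitochondrial sites, 32198 sites were higher and 173 lower, and 6205 genes higher and 23 lower (99.5% and 99.6%).

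Of the 179 list genes called lower, 31 had ratios above 0 with column totals and 170 when scaled on mitochondrial sites. Both scalings raise the ratios, by 0.72 and 2.53 at the median gene. The 191 genes called higher therefore could not fall below 0, and no scaling tried tested them downward. A gene or site is said to turn where its ratio changed sign, called or not. Among genes picked by the naming rule, those that turned with column totals and were called higher were Calr (0.41), Cdkn1b (0.29), Eif4g1 (0.49), Ndufb9 (0.37) and Ndufs4 (0.38). Those that turned but were not called were Eef2 (0.0063), Eif3a (0.28) and Pcsk2 (0.083). Of genes also named, Id2 (0.19) turned and was called higher, and Hnrnpc (0.09) turned but was not called. Scaled on mitochondrial sites, the named sites in Glcci1 (-0.15), Tigar (-0.37) and Egln1 (-0.39) were no longer called. With that scaling the Rabif site and the genes ND2 and Rps24, listed next, turned but were not called. The named sites in Nol12 (0.50) and Rabif (0.26) turned with that scaling. So did these genes picked by the rule: Akt1 (0.64), Akt2 (0.96), Alkbh5 (1.68), Cacnb3 (0.80), Calr (2.23), Cdkn1b (2.11), Chd4 (1.14), Chga (0.67), Eef1a1 (0.54), Eef2 (1.83), Ehmt2 (1.19), Eif3a (2.09), Eif4g1 (2.31), Got2 (0.50), Hnrnpa2b1 (0.87), Hspa5 (0.53), Id1 (1.69), Id3 (1.05), Maged1 (0.43) and Mcm2 (0.62). The rest were Mettl14 (0.83), ND2 (0.11), ND4 (0.52), ND5 (0.21), ND6 (0.37), Ndufb9 (2.20), Ndufs4 (2.20), Pabpc1 (0.76), Pcna (0.47), Pcsk2 (1.905), Rab3a (0.92), Rpl19 (1.42), Rpl37a (1.41), Rpl41 (0.97), Rps24 (0.85), Sdf2l1 (0.92), Slc38a5 (0.73), Srsf3 (0.43), Tra2a (0.59), Ttr (0.63) and Zbtb20 (0.96).

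With 1 site kept per 100 bases, fewer sites were tested and 11709 were called (5834 higher, 5875 lower), with 7301 departing from their gene (2967 above, 4334 below). Leaving out each library in turn gave 19051 to 22542 called sites (9486 to 11409 higher, 9565 to 11168 lower), 3935 to 4492 genes (1923 to 2275 higher, 1997 to 2218 lower) and 10549 to 14240 sites departing from their gene (4160 to 5966 above, 6389 to 8274 below); the change with knockdown stayed at 0 calls. Without IP replicate 1 of SCR, Malat1 was at -0.027, and without Input replicate 1 at 0.57; the cause was not tested. The replicate block changed the call of Malat1 and gave 1 site changed with knockdown, and changed no other call among the named results.

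Input depth limits the highest ratios: Casr, Sox9, Zfp763, Zfp940 and the sites in Zfp322a, Cyria and Rsf1 had 6 or fewer Input counts in all.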
